A study of Arabidopsis thaliana with 8 samples.

Results

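The comparison described here sets 1 library of the double mutant mom1pial2 against 1 library of its wild type (WT replicate 2), in seedlings of Arabidopsis thaliana. Members were the genes with a usable test status and at least 1 FPKM (fragments mapped to a gene, scaled by its length and by the size of the library) in either library. By this rule 19925 of 34133 entries were members, while 14153 usable entries lay under 1 FPKM in both libraries and 55 had another status. For each member the log2 of FPKM plus 1 in WT replicate 2 was subtracted from that in mom1pial2, so a log2 difference of 1 is a doubling on this scale. Just inside the minimum, AT1G60970 and AT5G67050 passed through WT replicate 2 alone and had log2 differences of -0.56 and -0.42, while AT4G20210 and CRK14 just outside it had 0.31 and 0.17.

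All plants were of the Col-0 background, 10 days old, raised on agar medium in long days without any treatment. The series holds 8 libraries of polyadenylated RNA: WT and mom1 with 2 each, and pial1/2, pial2, mom1pial2 and nrpe1 with 1 each. WT replicate 2 is also the control of mom1 replicate 2 and pial2, whereas mom1 replicate 1, pial1/2 and nrpe1 were tabulated with WT replicate 1. The labels name each mutant by its genes, give no allele, and do not say whether libraries came from separate plants or how many seedlings were pooled.

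MOM1 is a nuclear protein related to chromatin remodellers that keeps transposons and some genes silent, largely without removing their DNA methylation. PIAL2 belongs to a pair of SUMO E3 ligase-like proteins (with PIAL1) that bind MOM1 and are needed for silencing of many of the same loci. RNA polymerase V, whose largest subunit is NRPE1, acts in a separate pathway, RNA-directed DNA methylation, that silences a partly shared group of targets such as SDC.

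Both mutated genes were low in the double mutant. MOM1 (chromosome 1, 2501742 to 2511084) had 4.99 FPKM in WT replicate 2 and at 1.29 in mom1pial2. PIAL2 (chromosome 5, 16626337 to 16630783) stood at 5.53 and 2.13. The authors' deposited table called both lower, with q-values of 3e-13 and 1.25e-05. The single mutants showed similar residual levels, with MOM1 at 1.15 FPKM in mom1 replicate 2 and PIAL2 at 1.96 in pial2. The 2 genes that are intact in this mutant were not called: PIAL1 stood at 8.43 FPKM in WT and 7.72 in mom1pial2, and NRPE1 at 3.07 and 2.45.

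Most of the transcriptome was close to WT replicate 2. The median log2 difference over the members was 0.005 with a robust standard deviation of 0.204. At least 2-fold higher in mom1pial2 were 213 members (1.07%), and at least 2-fold lower were 171 (0.858%). The authors' deposited table, at a q-value under 0.05 (called, from here on), called 154 members higher (0.773%) and 247 lower (1.24%), next to 0.824% higher and 1.16% lower among all entries it tested. Both criteria together held for 104 higher and 82 lower members. The calls compare 2 libraries and not 2 genotypes, because neither side has a replicate and no spread between plants enters them. Of the 213 higher members 149 lay under 1 FPKM in WT replicate 2, so they entered the comparison only through the mutant library and had to differ. Likewise 83 of the 171 lower members lay under 1 FPKM in mom1pial2.

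Short entries account for many extreme values that were not called. Among the 109 members at least 2-fold higher without a call, 65 are under 300 bases long and 65 are listed at 0 in WT replicate 2. Among the 89 at least 2-fold lower without a call, 55 are that short. All 22 members at least 8-fold lower are listed at 0 in mom1pial2, none of them was called, and 20 are under 300 bases. An exact 0 in an FPKM table can be a failed estimate, and these members were therefore not described as changed. Without entries under 300 bases, 147 members were at least 2-fold higher and 116 at least 2-fold lower.

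**Figure D1:**
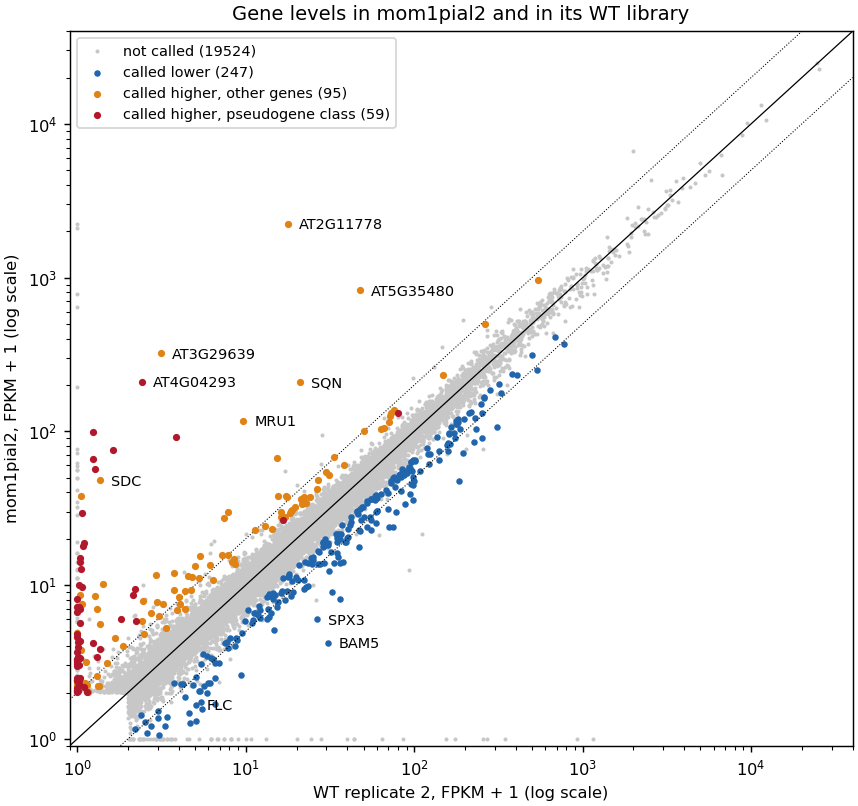
FPKM plus 1 of the 19925 members in WT replicate 2 (horizontal, log scale) and mom1pial2 (vertical, log scale), 1 library each; the solid line marks equal levels and the dotted lines a 2-fold difference. The 59 called pseudogene-class members (red; other members called higher are orange) sit mostly at the left edge, near 0 FPKM in WT, while the 247 members called lower (blue) lie close to the lower 2-fold line.

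Of the 15 called members with the highest ratios, 13 lay under 3 FPKM in both WT libraries, the exceptions being AT2G11778 and AT5G35480. AT2G11778, an entry under 300 bases on chromosome 2 (4728072 to 4728239), had 16.8 FPKM in WT replicate 2 and at 2238 in mom1pial2, the highest log2 difference among the called members (6.97). The FPKM of so short an entry depends strongly on how its effective length is estimated. Its neighbour AT2G11780, a pseudogene-class entry (4729678 to 4732966), stood at 0.235 and 98.1 FPKM (log2 difference 6.33). AT3G29639 (chromosome 3, 11478732 to 11479749) stood at 2.14 and 322 FPKM (6.68), and AT4G04293 (chromosome 4, 2076832 to 2077361) at 1.43 and 209 (6.43).

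WT replicate 1 gave the same picture for these 4 genes. Its values, multiplied by 0.964 so that the median gene matched WT replicate 2, were 1.81 FPKM for AT2G11778, 0.191 for AT2G11780, 1.496 for AT3G29639 and 2.96 for AT4G04293. Levels set across separately scaled tables are approximate, but mom1pial2 lay far above both WT libraries for each of them. In mom1 replicate 2, which shares its WT library with mom1pial2, the log2 differences of these 4 genes were 7.48, 6.33, 6.86 and 6.40. In pial2, which shares it too, they were -1.36, 0.19, 2.03 and 3.22.

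SDC, an F-box gene that is kept silent in vegetative tissue by methylation of repeats ahead of its start, had 0.357 FPKM in WT replicate 2 and 47.0 in mom1pial2 (log2 difference 5.14). It stood at 0.535 FPKM in WT replicate 1. The 250 bases ahead of its start (TAIR10.1, RefSeq, plus strand, chr2:7681912-7682161) are shown because they hold those repeats. Capitals mark a 20-base stretch that occurs 4 times, each copy 32 bases from the next, the nearest beginning 107 bases before the start.
SDC upstream: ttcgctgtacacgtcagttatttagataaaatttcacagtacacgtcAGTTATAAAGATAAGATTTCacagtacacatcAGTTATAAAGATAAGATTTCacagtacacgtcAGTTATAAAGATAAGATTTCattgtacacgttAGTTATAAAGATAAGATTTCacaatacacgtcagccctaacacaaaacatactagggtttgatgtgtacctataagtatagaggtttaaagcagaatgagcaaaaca

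SDC, AT3G29639, AT4G04293, MRU1 and APUM9 were the listed silencing targets that the authors' deposited tables call higher in all 6 comparisons, 2 of which share the WT library of this one (0.979% of tested genes were called higher in mom1 replicate 2 and 0.844% in pial2). The log2 difference of SDC was 4.89 in mom1 replicate 2 and 2.79 in pial2, both against the same WT library. Against WT replicate 1 it was 5.37 in mom1 replicate 1, 5.46 in pial1/2 and 3.19 in nrpe1.

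MRU1 and AT5G35480 are neighbours on chromosome 5 that are transcribed away from each other, and both were called higher. MRU1 (13689817 to 13690548) had 8.67 FPKM in WT replicate 2, 16.1 in WT replicate 1 and 116 in mom1pial2 (log2 difference 3.60). AT5G35480 (13689204 to 13689558) stood at 46.8, 45.8 and 826 FPKM (4.11). Both had more than 1 FPKM in WT replicate 2, so the filter on low values had no part in their selection. In pial2 their log2 differences were 2.67 and 3.03, and in nrpe1 1.68 and 1.32. The 220 bases between their starts (TAIR10.1, RefSeq, plus strand, chr5:13689597-13689816) are shown as the stretch that separates the pair. Capitals mark the longest stretch that occurs more than once, 15 bases found 2 times.
MRU1 to AT5G35480: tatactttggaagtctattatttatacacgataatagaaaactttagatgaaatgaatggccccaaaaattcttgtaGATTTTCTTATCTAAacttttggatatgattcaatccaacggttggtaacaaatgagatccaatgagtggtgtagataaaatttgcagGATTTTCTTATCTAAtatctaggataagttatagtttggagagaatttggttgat

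Other silencing targets were called higher over a wide range of sizes. APUM9, a Pumilio-family RNA-binding protein gene, had 0.0663 FPKM in WT replicate 2 and 6.56 in mom1pial2 (log2 difference 2.83). QQS, an orphan gene that affects starch content, stood at 6.19 and 14.8 (1.13, q-value 0.013 in the authors' deposited table). SQN, which encodes a cyclophilin 40 that works with ARGONAUTE1, stood at 19.98 and 209 (3.32). In all, 11 of the 12 listed targets were measured and 11 were called higher, with a median log2 difference of 5.48 against 0.005 over all members. The list was put together with these libraries' results known, so its direction is no independent evidence. FWA, a homeobox gene silent in vegetative tissue, was at 0.0293 FPKM in WT and 0.0828 in mom1pial2 and so was no member.

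SQN sits in a run of called genes on chromosome 2 (6877774 to 6887542). AT2G15800, which overlaps it on the opposite strand, had 0.635 FPKM in WT replicate 2 and 74.4 in mom1pial2 (log2 difference 5.53). The next entry, AT2G15810, stood at 0.281 and 56.0 (5.48), and AT2G15815 at 0 and 5.69 (2.74). SQN and AT2G15800 share one interval in the deposited table and the labels do not state that strand was used, so reads of the 2 cannot be told apart.

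**Figure D2:**
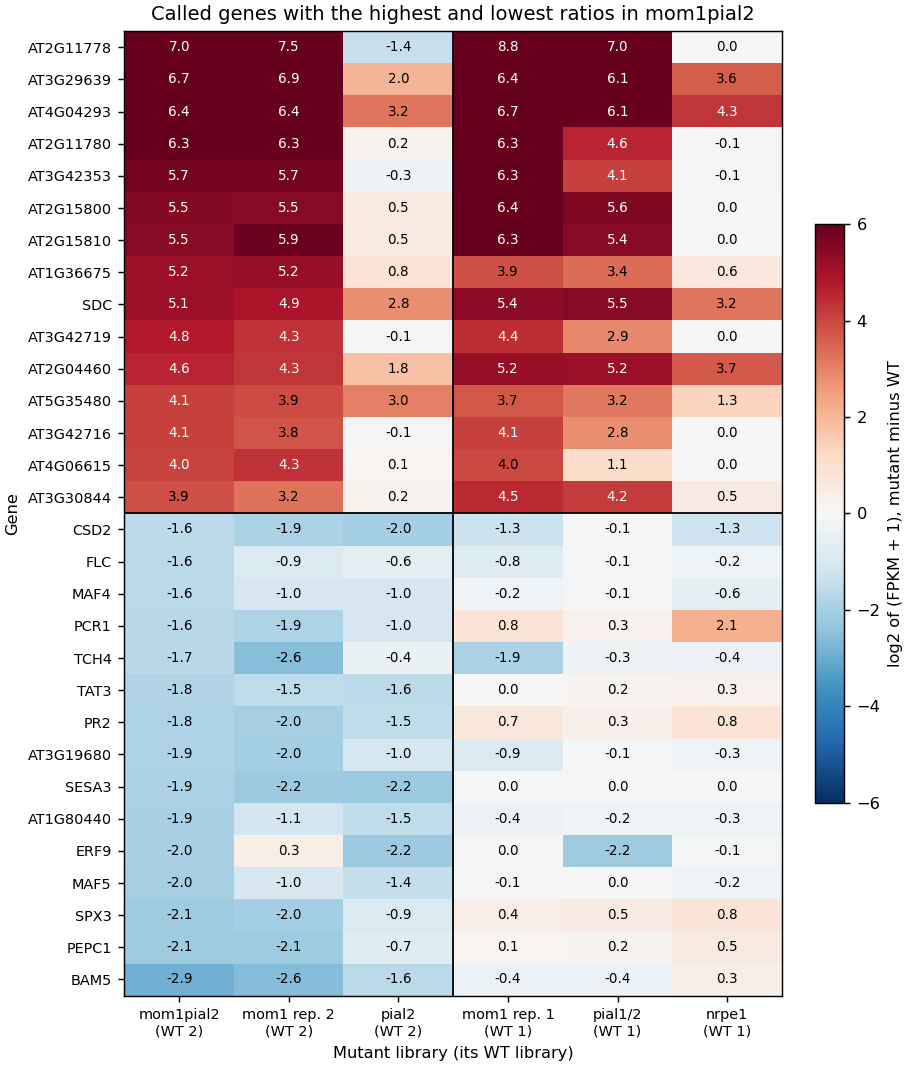
Log2 difference of FPKM plus 1, mutant minus WT, for the 15 called members with the highest and the 15 with the lowest difference in mom1pial2 (rows, chosen on the first column), in the 6 deposited comparisons (columns, the WT library in brackets; columns with the same WT library share that library). AT2G11778 reaches 6.97 in mom1pial2 and -1.36 in pial2, and ERF9 is low in mom1pial2, pial2 and pial1/2 (-1.96, -2.18 and -2.15).

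Of the 154 members called higher 55 were pericentromeric entries of the pseudogene class, the annotation class that also holds transposon genes. Windows around the centromeres of the 5 chromosomes held 4083 entries of this class, of which 135 were members and 55 were called higher and 3 lower. At least 2-fold higher were 63 of the 135, but 59 of these lay under 1 FPKM in WT replicate 2 and had to be higher to be measured. The 70 members of the class that had at least 1 FPKM in WT replicate 2 had a median log2 difference of -0.03, and 4 of them were at least 2-fold higher. Entries close to 0 in WT replicate 2 and called higher included AT3G42353 (0.237 FPKM in WT replicate 2, 65.2 in mom1pial2), AT3G42716 (0.0957 and 17.8) and AT4G06615 (0.0791 and 16.8).

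Chromosomes 3, 4 and 5 held most of the called entries of this class. Called higher in the windows were 7 of 17 members on chromosome 1, 6 of 37 on chromosome 2, 15 of 31 on chromosome 3, 12 of 21 on chromosome 4 and 15 of 29 on chromosome 5. On the chromosome arms the class had 129 members, of which 4 were called higher and 4 lower. The largest differences there were of uncalled short entries, such as RSU1 (0 FPKM in WT replicate 2, 10.09 in mom1pial2) and AT2G36040 (5.83 and 0). AT3G15310 was called on an arm, at 1.23 and 4.80 FPKM (log2 difference 1.38).

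Other pericentromeric genes held 24 called higher and 16 called lower among 1436 members. Repeats can blur such values, and exact 50-base words of the TAIR10.1 sequence were counted to see how far. In the 59 called pseudogene-class entries the median share of words that occur elsewhere in the nuclear genome was 6.28%, and in 4 entries it was at least 50%. Of the 95 other members called higher 71 had no such word. For SDC, MRU1, AT2G11778 and AT4G04293 the share was 0%, for AT2G11780 10.6% and for AT3G29639 11.7%.

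Called genes also formed runs, defined as 3 or more called members in one direction with at most 50 kb between starts. There were 10 runs of higher genes with 35 members and 6 runs of lower genes with 19. Counting members not called as well, the spans of the higher runs held from 3 to 10 members each. Those of the lower runs held from 3 to 16. On chromosome 3 the pseudogene entries AT3G42353, AT3G42356, AT3G42360 and AT3G42386 lay within 17.58 kb (14497056 to 14514632), and no other member lay between them. AT3G42356 had 0.0495 FPKM in WT replicate 2 and 11.8 in mom1pial2, and AT3G42360 at 0.0296 and 9.01.

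The run on chromosome 5 from 12966080 to 12975438 had positive values in pial2. Its members AT5G34790, AT5G34795, AT5G34800 and AT5G34810 had log2 differences from 1.502 to 2.1 in mom1pial2 and from 1.37 to 1.70 in pial2. AT5G34790 had 1.197 FPKM in WT replicate 2 and 8.42 in mom1pial2, and its log2 difference was 1.86 in pial1/2 and -0.73 in nrpe1. The run of AT3G42353 had differences between -0.31 and 0.14 in pial2. The difference between the runs was not tested.

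A run of higher genes on an arm of chromosome 5 (2390207 to 2397548) holds GRP20, a glycine-rich oleosin-type protein gene of the pollen coat. GRP20 had 0.422 FPKM in WT replicate 2 and 9.11 in mom1pial2 (log2 difference 2.83), and its neighbours AT5G07570 and AT5G07572 had 1.05 and 1.478. GRP20 had 2.04 in mom1 replicate 1 and 1.91 in pial1/2. Another, on the same chromosome (21123958 to 21165025), holds AT5G52070, at 14.3 FPKM in WT replicate 2 and 65.9 in mom1pial2 (2.13). AT5G52070 lay between 1.89 and 2.35 in all 6 comparisons, and it stood at 5.28 FPKM in WT replicate 1.

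Comparisons that use WT replicate 1 share no library with this one, so their calls could be counted. Of the 154 members called higher in mom1pial2, 87 (56.5%) were also called higher in mom1 replicate 1, and they were 39.2% of the 222 entries called higher there (0.999% of those tested). In pial1/2 the number was 64, which is 41.6% of the 154 and 41.8% of the 153 called higher there (0.7% of those tested). In nrpe1 it was 31, which is 20.1% and 11.7% of 264 (1.2% of those tested).

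By class of gene, of the 59 pseudogene-class members called higher, 54 were called higher in mom1 replicate 1 (57 had enough signal to be tested there), 40 in pial1/2 (44 tested) and 8 in nrpe1 (17 tested), with median log2 differences of 1.74 in mom1pial2, 1.68 in mom1 replicate 1, 0.74 in pial1/2 and 0 in nrpe1. Of the 24 other pericentromeric genes called higher, 18 were called higher in mom1 replicate 1 (24 tested), 16 in pial1/2 (23 tested) and 9 in nrpe1 (21 tested). Of the 71 other genes on the arms called higher, 15 were called higher in mom1 replicate 1, 8 in pial1/2 and 14 in nrpe1, and their median was 0.97 in mom1pial2 and 0.18 in mom1 replicate 1. Of the 247 members called lower, 43 were called lower in mom1 replicate 1, being 17.3% of its 249 (1.12% of those tested), 14 in pial1/2 (0.489% called there) and 27 in nrpe1 (0.67%). Called higher there instead were 2, 2 and 11 of the 247, in the same order. Of all 154 called higher in mom1pial2, 1, 3 and 6 were called lower in these comparisons.

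**Figure D3:**
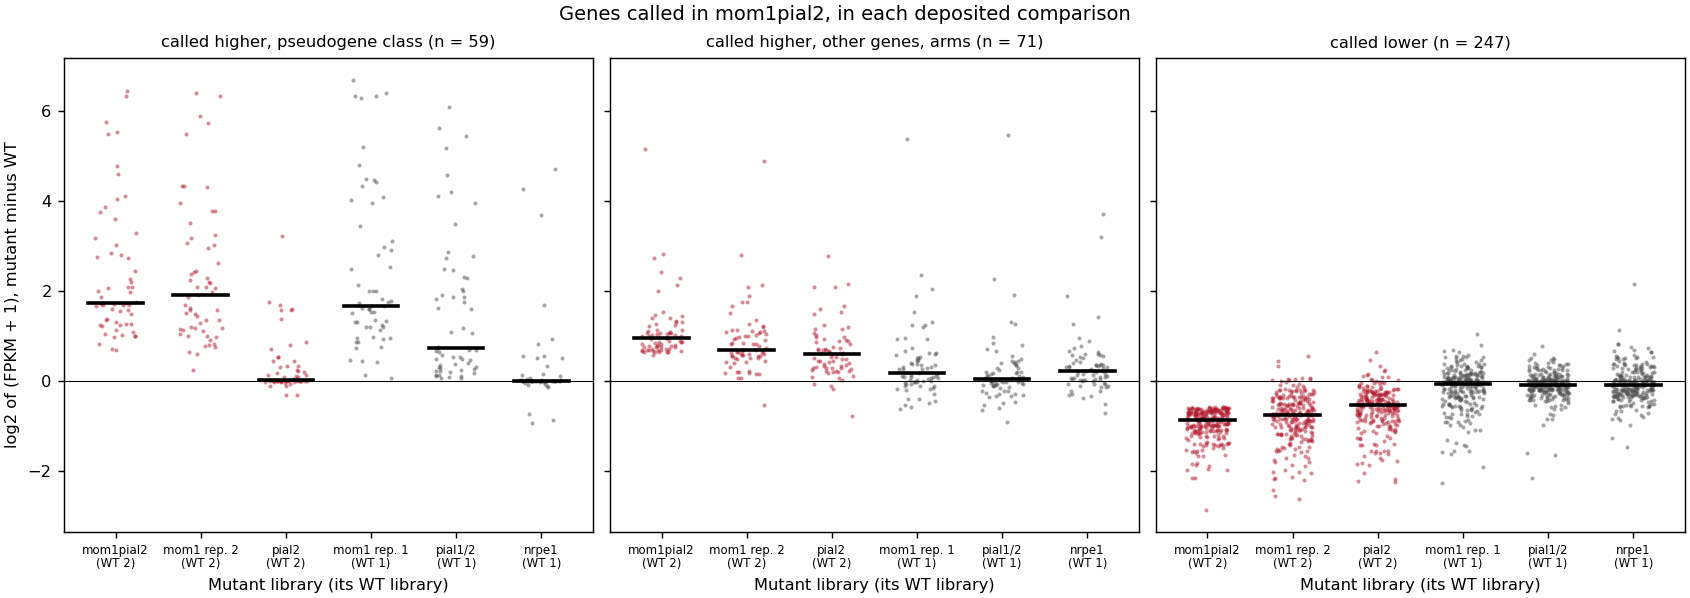
Log2 differences of FPKM plus 1 (vertical) of the members called in mom1pial2, in each deposited comparison (horizontal, WT library in brackets); points are genes, bars medians, and red marks comparisons with WT replicate 2. Pseudogene-class members have a median of 1.68 in mom1 replicate 1, which shares no library, whereas members called lower go from -0.86 in mom1pial2 to -0.07.

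The 2 WT libraries differed from each other more than mom1pial2 differed from WT replicate 2. The robust standard deviation of the log2 difference between the WT libraries was 0.602 over the members. Morning clock genes had a median log2 difference of 2.09 between WT replicate 2 and its counterpart (the first minus the second), and of -0.12 between mom1pial2 and WT replicate 2. The 247 members called lower were called on their level in WT replicate 2, which favours genes high in that library, and 180 of them were higher there than in WT replicate 1, with a median log2 difference of 0.72. With WT replicate 1 as the control, 142 of the 247 were lower in mom1pial2 and the median log2 difference was -0.16 in place of -0.86. As background, mom1pial2 lay below WT replicate 1 for 9544 of 19908 members and above it for 10328. Between the WT libraries, the replicate 2 level exceeded the replicate 1 level for 10181 of the 19908. Of the 154 called higher 138 were higher than WT replicate 1 too, among them all 59 of the pseudogene class. The same mom1pial2 library selected these genes, and most of the 59 were near 0 in WT replicate 2. For entries near 0 in both WT libraries this direction was largely fixed in advance. The part of the WT libraries' difference in the lower genes was not tested.

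Phosphate starvation genes were the listed group with the lowest median. Plants short of phosphate raise SPX proteins that sense inositol pyrophosphates, the decoy RNA IPS1 that binds a microRNA, phosphatases, and enzymes that replace phospholipids with galactolipids. All 12 measured members lay below WT replicate 2, 6 of them were called lower, and the median log2 difference was -0.84. SPX3, a repressor of the phosphate response that is itself induced by phosphate shortage, had 25.5 FPKM in WT replicate 2 and 4.98 in mom1pial2 (-2.15). IPS1 stood at 36.8 and 13.1 (-1.42), SPX1 at 108 and 54.0 (-0.98), and MGD3, a galactolipid synthase, at 13.7 and 4.07 (-1.53).

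AT1G73010, a phosphatase gene, and SRG3, a glycerophosphodiester phosphodiesterase gene, stood at 54.0 and 21.8 FPKM and at 98.5 and 46.3. PEPC1 (AT1G17710), a phosphatase of phosphocholine and phosphoethanolamine that was not matched to the list by its symbol, stood at 35.2 and 7.15 (log2 difference -2.15). The not called members included SQD2, a sulfolipid synthase, at 84.4 and 59.6, and the transporter PHT1;4 at 19.5 and 15.1. In WT replicate 1 all 12 were lower than in WT replicate 2, by a median of 1.60, and all 12 were higher in mom1pial2 than in WT replicate 1. SPX3 stood at 1.39 FPKM there and IPS1 at 9.98. So mom1pial2 lay between the WT libraries for every member. The list's median was -0.70 in mom1 replicate 2 and -0.26 in pial2, which share WT replicate 2, and 0.26 in mom1 replicate 1.

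The P1BS element, G, any base, ATAT, any base, C (its own reverse complement), is bound by PHR transcription factors of the phosphate response. It occurred in the 250 bases ahead of the start of 5.50% of members and 5.28% of all annotated nuclear genes. The share was 12.7% of members called lower and 5.19% of those called higher, and 5 of the 12 measured phosphate genes held it. The difference between these shares was not tested, and the phosphate list was chosen with earlier results of these data known. SPX3 and SRG3 each hold 2 matches, in capitals below (TAIR10.1, RefSeq; SPX3 plus strand, chr2:18606160-18606409; SRG3 minus strand, chr3:350011-350260), shown as the called phosphate genes with more than 1 match. Absence of these letters in this window, as for IPS1 and SPX1, says nothing of sites further away.
SPX3 upstream: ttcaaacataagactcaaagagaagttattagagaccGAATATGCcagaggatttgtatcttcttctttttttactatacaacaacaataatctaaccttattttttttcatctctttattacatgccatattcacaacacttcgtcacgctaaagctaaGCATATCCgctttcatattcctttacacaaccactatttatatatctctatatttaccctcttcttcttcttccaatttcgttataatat
SRG3 upstream: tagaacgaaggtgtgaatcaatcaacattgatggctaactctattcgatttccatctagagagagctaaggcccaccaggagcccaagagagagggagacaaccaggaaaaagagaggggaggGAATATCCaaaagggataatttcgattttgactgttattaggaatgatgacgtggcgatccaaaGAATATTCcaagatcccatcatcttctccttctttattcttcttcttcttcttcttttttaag

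The flowering repressors FLC, MAF4, MAF5, TEM1 and TEM2 were called lower in the double mutant and were below both WT libraries, whereas MAF1, MAF2, MAF3, SVP and TFL1 were not called. FLC, the MADS-box repressor that vernalization silences, had 4.07 FPKM in WT replicate 2, 2.19 in WT replicate 1 and 0.671 in mom1pial2 (log2 difference to WT replicate 2 -1.60). Its relatives MAF4 and MAF5 stood at 4.41 and 0.744 (-1.63) and at 5.60 and 0.687 (-1.97). The AP2-type repressors TEM1 and TEM2 stood at 32.6 and 12.9 (-1.27) and at 57.9 and 24.4 (-1.21). These were the 5 called members of 15 measured flowering-time genes, all lower, and the list's median was -0.35. The same 5 had differences from -0.88 to -1.03 in mom1 replicate 2 and from -0.57 to -1.42 in pial2. In mom1 replicate 1 FLC had -0.77 and the other 4 had between -0.21 and 0.02.

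Copper-linked genes moved in both directions. CSD2 and CSD1, the chloroplast and cytosolic copper/zinc superoxide dismutases, stood at 70.1 and 23.0 FPKM (log2 difference -1.56) and at 77.3 and 29.0 (-1.39). BCB, a blue copper-binding protein gene, stood at 8.54 and 3.85 (-0.98). COPT2, a copper transporter of the plasma membrane that is induced when copper is short, stood at 16.2 and 37.0 (1.14) and was the 1 member of 11 called higher. CSD2 stood at 70.6 FPKM in WT replicate 1, so it was below both WT libraries, and it was -1.30 in mom1 replicate 1, -1.26 in nrpe1 and -0.08 in pial1/2. FSD1, the iron superoxide dismutase, was not called (376 and 530 FPKM).

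ERF9, a repressor of the ethylene response factor family, was called lower. It had 4.08 FPKM in WT replicate 2, 4.33 in WT replicate 1 and 0.304 in mom1pial2 (log2 difference -1.96). It was -2.18 in pial2 and -2.15 in pial1/2, but 0.34 in mom1 replicate 2, 0.05 in mom1 replicate 1 and -0.08 in nrpe1. CYCB1;5, a B-type cyclin, was lower in all 6 comparisons. It had 1.74 FPKM in WT replicate 2 and 0.205 in mom1pial2 (-1.18), and its difference lay between -1.60 and -0.85 in the others. The other 11 measured mitotic genes lay above WT replicate 2, and none of these was called. Against WT replicate 1, however, 9 of the 12 were lower in mom1pial2, with a median log2 difference of -0.24.

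The lowest ratio among the called members was that of BAM5, a beta-amylase of the phloem, at 29.7 FPKM in WT replicate 2 and 3.22 in mom1pial2 (log2 difference -2.86). WT replicate 1 stood at 6.0025. AT1G80440, a Kelch-repeat F-box protein gene, stood at 183 and 46.8 (-1.94) and at 129 in WT replicate 1. PR2, a glucanase gene of salicylic acid defence, was the 1 called member of 14 in that list, at 8.34 and 1.60 (-1.84), while PR1 stood at 3.10 and 1.68 without a call. TAT3, a tyrosine aminotransferase gene induced by jasmonate, stood at 4.52 and 0.569 (-1.81), and at 0.466 in WT replicate 1.

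The list of touch-induced genes and the EXORDIUM family had 4 of 11 members called lower. The list's median was -0.18, and TCH2 (126 and 172 FPKM) and TCH3 (69.3 and 104.5) lay above WT replicate 2 without a call. TCH4, a xyloglucan endotransglucosylase, had 73.7 FPKM in WT replicate 2 and 22.7 in mom1pial2 (log2 difference -1.65), and EXO at 98.0 and 34.5 (-1.48). WT replicate 1 stood at 836 FPKM for TCH4 and 421 for EXO, far above either. Rapid stress transcription factors had 2 of 12 called higher and 1 lower. RRTF1, an ERF that spreads reactive oxygen signals, stood at 0.279 and 7.501 (2.73), WRKY40 at 4.37 and 14.6 (1.53), and ERF104 at 15.5 and 8.11 (-0.85). WRKY40 was 2.15 in pial2 and 0.18 in mom1 replicate 2.

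Of the jasmonate list 4 of 19 measured members were called, of the abscisic acid, cold and drought list 2 of 21 and of the auxin and shade list 2 of 20. LOX4 and LOX3, lipoxygenases of jasmonate synthesis, were called higher at 3.003 and 7.353 FPKM (log2 difference 1.06) and at 2.93 and 5.92 (0.82), while 2 other members of 19 were called lower. CBF2, a cold-response regulator, stood at 2.06 and 5.24 (1.03), and AT5G66400, the dehydrin RAB18, at 171 and 97.1 (-0.81). In WT replicate 1 CBF2 stood at 3.26 FPKM and RAB18 at 76.4, so RAB18 in mom1pial2 lay between the WT libraries. Of the 20 auxin and shade genes 16 lay above WT replicate 2, and PIL1 and IAA19 were called higher (0.78 and 0.77). The iron list had 1 call in 13, bHLH101 at 30.2 and 11.3 (-1.34), and the anthocyanin list 1 in 11, the repressor MYBL2 at 28.2 and 12.9 (-1.07). WT replicate 1 stood at 9.18 FPKM for bHLH101, below mom1pial2, and at 66.0 for MYBL2, above it.

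**Figure D4:**
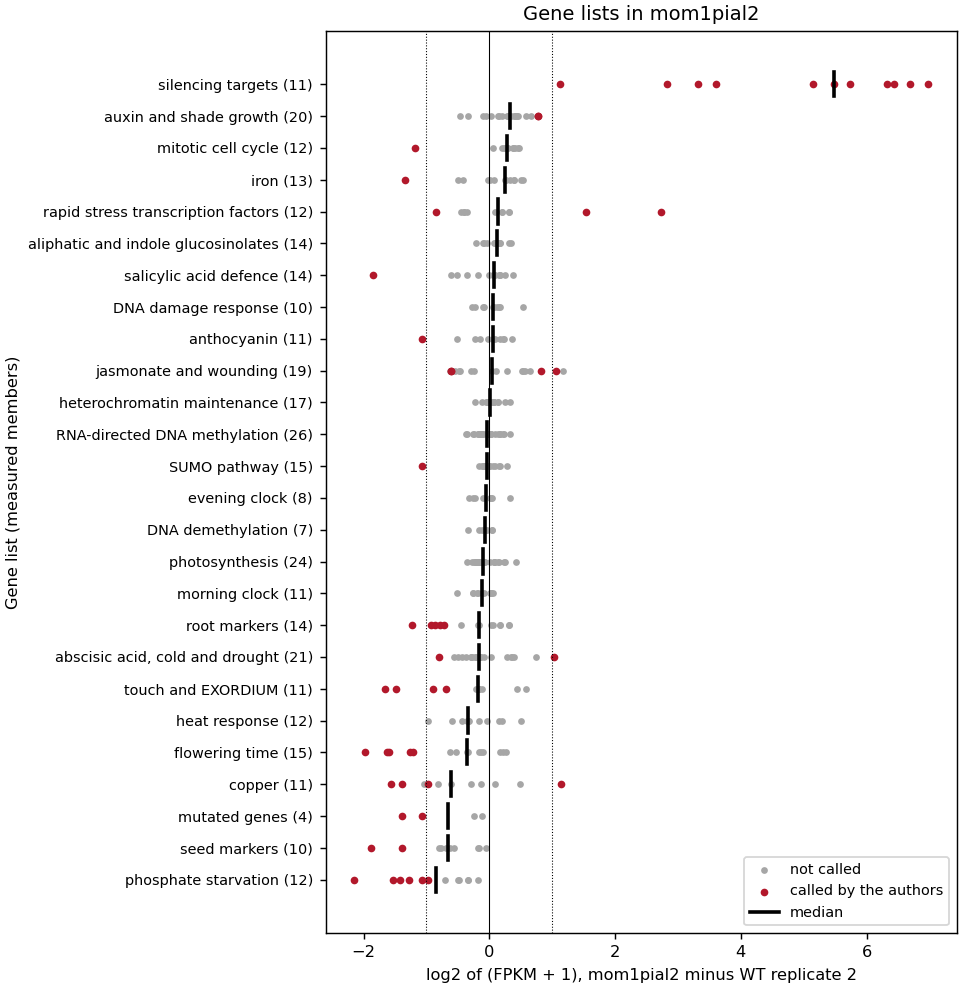
Log2 difference of FPKM plus 1, mom1pial2 minus WT replicate 2 (horizontal), for the measured members of each gene list with more than 1 (vertical, number measured in brackets); points are genes, red those called by the authors, black bars medians, dotted lines a 2-fold difference. The silencing targets have the highest median (5.48) and the phosphate genes the lowest (-0.84).

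The listed genes of the silencing machinery stayed close to WT replicate 2. None of 26 measured genes of RNA-directed DNA methylation, 17 of heterochromatin maintenance or 7 of DNA demethylation was called or passed 2-fold. The list medians were -0.03, 0.01 and -0.06. Over all members 0.773% were called higher and 1.24% lower, and 1.07% and 0.858% passed 2-fold. At those shares the absence of calls in lists of this size says little. Against WT replicate 1 the list medians were -0.28, 0.12 and -0.43. The largest differences from WT replicate 2 were those of KTF1 and RDR2. KTF1, an adaptor of RNA polymerase V, stood at 16.1 and 12.3 FPKM (-0.36), and the RNA polymerase RDR2 at 4.03 and 2.93 (-0.36). The RNA-silencing genes FDM2 and SGS3 were not in these lists, and both were called lower (-0.68 and -1.04). Of 15 measured SUMO pathway genes PIAL2 was the 1 called. No member of the clock, heat response, glucosinolate or DNA damage lists was called, which says little at the shares over all members. Of the 12 measured heat genes 9 lay below WT replicate 2 (9773 of 19925 over all members), with a median of -0.33. All 12 lay above WT replicate 1.

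Markers of other organs differed from list to list. Seed markers had 10 measured members, all below WT replicate 2, with summed levels of 40.6 FPKM in WT replicate 2 and 23.1 in mom1pial2. SESA3 and SESA2, seed storage albumins, were called lower (3.64 and 0.265 FPKM, 4.37 and 1.06). Both are listed at 0 in WT replicate 1. Root markers had 5 of 14 called lower, all of them in the thalianol and marneral triterpene clusters, among them MRN1 at 21.8 and 8.76 (log2 difference -1.22) and THAD at 35.3 and 19.1 (-0.86), with summed levels of 929 and 887 FPKM. Of the 14 root markers 6 lay above WT replicate 2. In mom1pial2 the called 5 all lay above WT replicate 1, where MRN1 stood at 3.70 FPKM and THAD at 11.9. Green tissue markers, 24 measured, had summed levels of 86190 and 83630 FPKM with no call, and of 10 flower markers SEP3 was the 1 measured (3.03 and 2.93 FPKM). The part of these markers in the lower genes was not tested, and fewer cells of a type and less RNA per cell cannot be told apart in whole seedlings.

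**Figure D5:**
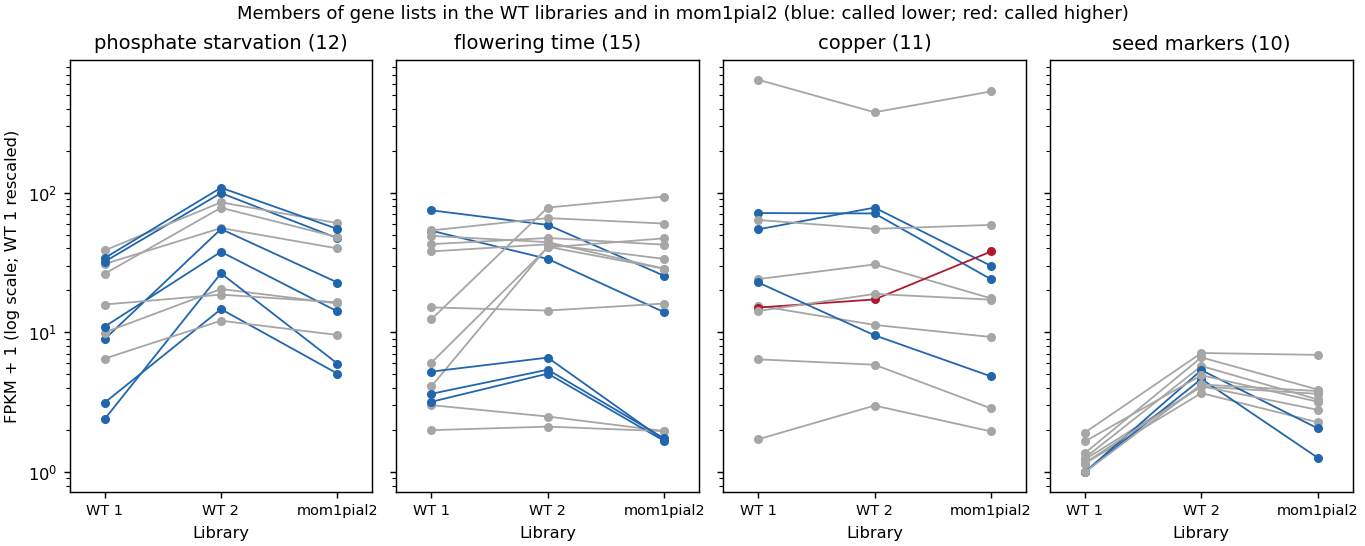
FPKM plus 1 (vertical, log scale) of the measured members of 4 gene lists in WT replicate 1 (rescaled to WT replicate 2), WT replicate 2 and mom1pial2 (horizontal, 1 library each); lines join a gene, blue lines were called lower and red called higher in mom1pial2. All 12 phosphate genes peak in WT replicate 2, and all 10 seed markers are lowest in WT replicate 1, while FLC, MAF4 and MAF5 are lowest in mom1pial2.

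With the spread of the 2 mom1 ratios lent to the single mom1pial2 ratio, limma (empirical Bayes, Benjamini-Hochberg over 20628 genes) called 13 genes higher (0.063%) and 1 lower (0.00485%). At an unadjusted p under 0.05 it found 651 higher and 605 lower. All 14 adjusted calls were lost (0 higher and 0 lower) with an intensity trend, without the filter on low values and without the replicate block. Of the 14 calls 6 were also called by the authors: AT2G11780, AT4G04293, AT3G42719, AT3G29639, MRU1 and AT5G35480, with limma adjusted p-values from 0.0457 to 0.0473 and, for MRU1, a log2 difference of 3.60 with a standard error of 0.12. Of the other 8 calls 7 were entries under 300 bases, and 5 of the 14 were listed at 0 in every WT and mom1 library, where the mom1 ratios show no spread. SDC had a limma adjusted p of 0.0615, SQN 0.107, ERF9 0.214 and SPX3 0.753. The fit has 1 residual degree of freedom and assumes that mom1pial2 varies as the mom1 ratios do.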

How the data were processed

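Polyadenylated RNA of whole seedlings was sequenced in 8 libraries. The submitters' processing notes name TopHat2 2.0.12 and Bowtie for alignment to TAIR10, Cufflinks 2.2.1 and Cuffdiff; read length, strand and read filters are not given in the sources used here. Per the file headers, the authors deposited 6 tables of 2 libraries, each with its own scaling of FPKM, and the deposited p-values and q-values are the authors' Cuffdiff test of those 2 libraries. WT replicate 2 differed between its 3 tables by factors of 0.981 and 0.998, so ratios were taken within a table. The files hold no counts, so depth is unknown; by the steps of low values 1 fragment was worth 1.13 times as much in mom1pial2 as in WT replicate 2. Only relative precision follows from that.

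Log2 ratios used a pseudocount of 1 FPKM, which understates the change of low genes, and a minimum of 1 FPKM in either library. Within-table ratios of mom1 replicate 1, mom1 replicate 2 and mom1pial2 went into a limma fit (limma 3.58.1, R 4.3.3) (1 coefficient per genotype, two-sided, Benjamini-Hochberg at 0.05); the script was tested on simulated data. Other steps used Python 3.11.15, numpy 2.4.6 and pandas 2.3.3. Nothing says that the libraries are separate plants, so p-values measure only the spread between these samples, which may be technical.

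Entries were matched by locus to RefSeq TAIR10.1, and 19765 members matched. Coordinates are the deposited TAIR10 intervals; sequences come from TAIR10.1 at the annotated starts. Pericentromeric windows ran from 12 to 18 Mb on chromosome 1, 1 to 7 on 2, 11 to 17 on 3, 2 to 6 on 4 and 9 to 16 on 5. The 27 gene lists and the members were chosen with earlier results of these data known. Named genes are the mutated genes, the 15 highest and 15 lowest called members, up to 4 members of each list by size of difference and all past 2-fold, up to 8 pseudogene-class members on arms past 2-fold, all members of runs, and the 4 entries nearest the 1 FPKM minimum. Outside that rule, SQD2, PHT1;4, FSD1, FDM2, SGS3, TCH2 and TCH3 were chosen after their values were seen. Alternatives were other pseudocounts, filters, folds, thresholds, centring and controls.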

Additional observations from a re-analysis of the deposited data

How the results depend on the processing

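All 19925 members had status OK, so keeping status OK only could change nothing, and centring on the median gene moved each ratio by only 0.005. Centring, leaving out entries under 300 bases or entries that share an interval (both chosen after seeing the data), and no filter kept the counts of 2-fold higher and lower members within 1.5 times of 213 and 171. They became 331 and 289 with a pseudocount of 0.1, 82 and 73 with one of 5, 114 and 108 with at least 5 FPKM in a library, 113 and 62 at 3-fold, and 64 higher with at least 1 FPKM in WT replicate 2. The authors' 247 lower calls became 158 at a q-value under 0.01, 82 with 2-fold added, and 142 that kept their direction against WT replicate 1; the 154 higher calls stayed within 1.5 times (104 to 138). At q under 0.01, a setting chosen after seeing the data, lower calls shared with mom1 replicate 1 went from 43 to 26 and with pial1/2 from 14 to 6. In limma 13 higher and 1 lower became 21 and 1 with a pseudocount of 0.1, 7 and 1 with one of 5, 27 and 3 with at least 5 FPKM, and 4 and 3 with at least 1 FPKM in WT replicate 2. Limma called 0 and 0 without a filter (1768 and 1525 at an unadjusted p under 0.05), 0 and 0 with an intensity trend (704 and 591), and 0 and 0 with no replicate block, that is, on levels by genotype (145 and 70). The cause was not tested. Leaving out either mom1 replicate left no residual degrees of freedom, so no value was had. Of 179 medians of lists and classes under alternatives 20 moved by more than 0.164, the spread of 1 mom1 ratio, and of the named genes' values under the other pseudocounts 191 moved by more than that and 179 did not; the median of the pericentromeric pseudogene class ran from -0.03 to 0.83. Depth limits low entries, which rest on few fragments.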
